A study of Mus musculus with 6 samples.

Results

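H3K27ac, a mark of active enhancers and promoters, was examined at 9 genes that write, maintain or remove DNA methylation: Tet1, Tet2, Tet3, Dnmt1, Dnmt3a, Dnmt3b, Dnmt3l, Uhrf1 and Tdg. A peak was assigned to a gene when it overlapped the gene body (GENCODE vM21, GRCm38) or the 10 kb on either side, whatever its change. This gave 33 of the 31131 deposited peaks: 11 at Tet2, 10 at Tet1, 4 at Uhrf1, 3 each at Dnmt1 and Tdg, and 1 each at Tet3 and Dnmt3a. No peak was assigned to Dnmt3b or Dnmt3l. All 33 peaks passed the threshold of 0.5 RPKM (the reads in a peak scaled to its length and to the size of the library) in either condition, and they are among the 26457 peaks tested. The genes and lists were chosen with earlier results of these data known. The study itself displayed a decrease of H3K27ac at a Tet1 and a Tet2 enhancer.

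DNMT3A and DNMT3B place methyl groups on unmethylated cytosines, with DNMT3L as a cofactor that has no catalytic activity of its own, whereas DNMT1 copies methylation to the new strand after replication, guided by UHRF1. TET1, TET2 and TET3 oxidize 5-methylcytosine, and TDG excises the most oxidized forms so that base excision repair can restore cytosine. Mouse embryonic stem cells (ESCs) held with MEK and GSK3 inhibitors have low DNA methylation, and TET1 and TET2 are the main TET proteins in ESCs.

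The libraries came from O4AID ESCs of strain 129SV. In all of them the endogenous Oct4 alleles are inactivated, wild-type Oct4 from a TetOFF transgene is kept off by doxycycline, and OCT4 fused to an auxin-inducible degron and the F-box protein TIR1 are expressed from CAG promoters. Cells grew in N2B27 with PD03 (a MEK inhibitor), Chiron (a GSK3 inhibitor) and mLIF. Immunoprecipitations (IPs) were made in 3 replicates from uninduced cells and 3 from cells given 500 μM of the auxin IAA for 1.5 h, which leads to degradation of the OCT4 fusion. The transgenes are constitutive, so their OCT4 level does not follow the Oct4 promoter, and no degron-free control treated with IAA was analysed here. The paper used ESCs with the degron on eGFP as a control. By ChIP-qPCR it reports that IAA left H3K27ac unchanged there at the Klf4 and Prdm14 enhancers. The IPs are not said to come from separate cultures, so p-values measure the spread between IPs.

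The libraries held 31634480 to 39547452 reads. Of these, 6.63% to 7.12% fell in peaks in the uninduced libraries and 4.05% to 5.15% after IAA, and no spike-in or input was used. Since RPKM is scaled to the whole library, a factor common to all its peaks is part of each value. The median log2 change of all tested peaks was -0.55, so each change is given both on the deposited RPKM scale and relative to the median peak or gene, after centring each library on that median. All 8 ESC marker genes examined had peaks, at 4.32 to 9.78 RPKM in uninduced cells, against 8 of 18 markers of other lineages and feeders, at 1.48 to 2.77 RPKM. Cdx2, Eomes, Elf5, Sox17, Gata4, Sox7, T, Mixl1, Col1a2 and Thy1 had none. Among all protein-coding genes, 13788 had a peak. The 9.78 RPKM was that of Pou5f1, the Oct4 gene, whose coding sequence is also in the transgenes. Whether transgene reads add to its value was not tested. The next highest marker was Tbx3, at 7.52 RPKM.

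The sequences of 2 intronic peaks are given, 1 with a steep change and 1 with the smallest change. A link between sequence and change was not tested. Each is the central 300 bases of the peak on the plus strand of GRCm38, with CpG dinucleotides, the substrate of these enzymes, in capitals. The Tet1 peak fell most of the Tet1 peaks and carries the authors' mark for an OCT4 site at most 1 kb away, and the Dnmt3a peak had the smallest change. They hold 6 and 4 CpGs, respectively.
Tet1 intron, chr10:62893656-62893955: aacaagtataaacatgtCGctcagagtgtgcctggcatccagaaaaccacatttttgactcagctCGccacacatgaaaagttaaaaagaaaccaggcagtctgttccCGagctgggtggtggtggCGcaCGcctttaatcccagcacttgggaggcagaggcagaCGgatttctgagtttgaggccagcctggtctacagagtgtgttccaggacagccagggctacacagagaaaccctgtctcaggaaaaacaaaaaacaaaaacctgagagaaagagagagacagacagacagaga
Dnmt3a intron, chr12:3871879-3872178: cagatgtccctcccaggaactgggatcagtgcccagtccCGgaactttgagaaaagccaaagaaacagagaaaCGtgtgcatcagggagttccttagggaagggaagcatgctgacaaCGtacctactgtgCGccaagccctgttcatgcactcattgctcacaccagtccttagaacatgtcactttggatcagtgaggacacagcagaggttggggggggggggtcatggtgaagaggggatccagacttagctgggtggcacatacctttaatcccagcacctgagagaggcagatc

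Of the 33 peaks, 30 fell after IAA at an adjusted p under 0.05 (limma with the Benjamini-Hochberg method) and 0 rose, since all 33 estimates were below 0. All peaks were called on the pooled uninduced IPs, which favours falls and limits rises, for the 33 as for all tested peaks. Across all tested peaks 68.2% were lower by this test, so a fall by itself does not set these genes apart. The highest IAA value was lower than the lowest uninduced value at 28 of the 33 peaks, against 71.2% of all tested peaks. Relative to the median peak, 9 of the 33 were lower and 0 were higher (limma, with 14 lower and 1 higher at an unadjusted p under 0.05), where 1.97% of all tested peaks were lower. Of these 9 peaks, 8 are at Tet2 and 1 is at Tet1. This count rests on the libraries used: it was 2 without uninduced replicate 1, 1 without uninduced replicate 3 and 12 without IAA replicate 3. The median log2 change was -1.15 over the 22 peaks of the Tet genes, -0.69 over the 11 peaks of the other genes and -0.55 over all tested peaks. Neighbouring peaks of a gene share libraries and are not replicates.

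**Figure D1:**
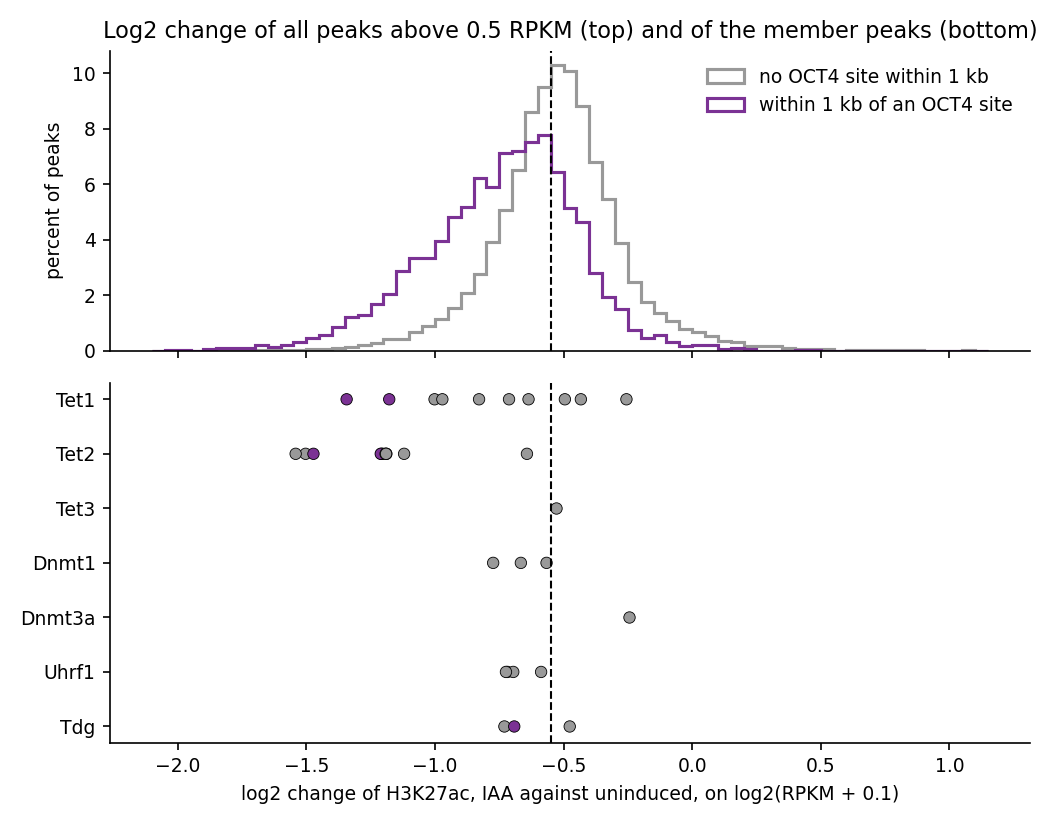
Top, share of all tested peaks (percent) by log2 change of H3K27ac (IAA against uninduced, on log2(RPKM + 0.1)), for peaks with and without an OCT4 site within 1 kb. Bottom, each of the 33 peaks by gene, purple where an OCT4 site lies within 1 kb; the dashed line is the median of all peaks, -0.55. Most Tet2 peaks lie far to the left of that line, and the Uhrf1, Dnmt1, Tdg and Tet3 peaks lie near it.

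Per gene, H3K27ac was taken as the mean RPKM of its peaks weighted by peak length, and tested with limma on log2 over 13025 protein-coding genes. Of the 7 genes with a peak, 6 were lower and 0 were higher, and 86.7% of all tested genes were lower. Relative to the median gene, only Tet2 of the 7 was lower (limma, with 3 lower and 0 higher at an unadjusted p under 0.05), where 1.01% of all tested genes were lower. In each of the 6 lower genes the conditions did not overlap, with an exact two-sided permutation p of 0.1, the smallest that 3 against 3 libraries allow. The share of all tested genes without overlap was not counted, so this separation does not set the 6 genes apart.

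Tet2, which encodes a TET protein without the CXXC domain that TET1 carries, had the steepest fall of the 7. Uninduced replicates 1 to 3 had 4.99, 4.40 and 4.77 RPKM, against 2.0004, 2.04 and 1.74 RPKM in IAA replicates 1 to 3. The lowest uninduced library was thus well above the highest IAA library. The means were 4.72 ± 0.300 RPKM (SD, n = 3) and 1.93 ± 0.163 RPKM (SD, n = 3), so that 40.8% of the signal remained. The log2 change was -1.29 (SE 0.15, adjusted p = 9.97e-09, limma), at rank 44 of 13025 genes when ordered from the steepest fall. Against the median gene it was -0.74 (SE 0.09, adjusted p = 0.00708, limma). That call was lost without uninduced replicate 1, at -0.72 with an adjusted p of 0.0611, and without uninduced replicate 3, at -0.69 with an adjusted p of 0.0589 (limma).

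Tet1, whose protein binds CpG-rich DNA through a CXXC domain, followed. Its values were 4.30, 3.93 and 3.86 RPKM in the uninduced libraries and 2.26, 2.24 and 1.99 RPKM after IAA, again without overlap. The means were 4.03 ± 0.235 RPKM (SD, n = 3) and 2.16 ± 0.152 RPKM (SD, n = 3), a log2 change of -0.90 (SE 0.15, adjusted p = 1.39e-05, limma). Relative to the median gene the change was -0.34 (SE 0.08) and did not pass the threshold (adjusted p = 0.0832, limma).

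Tet3, the form known for the oxidation of the paternal genome in the zygote, had 1 peak with 14 to 34 reads per library. Its level was 1.97, 1.89 and 1.60 RPKM before and 1.34, 1.46 and 0.926 RPKM after IAA. The log2 change of -0.57 (SE 0.21, adjusted p = 0.0126, limma) was close to that of the median gene, with a relative change of -0.01. The call was lost without uninduced replicate 1 (adjusted p = 0.0679), uninduced replicate 2 (adjusted p = 0.0505) or IAA replicate 3 (adjusted p = 0.0595).

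**Figure D2:**
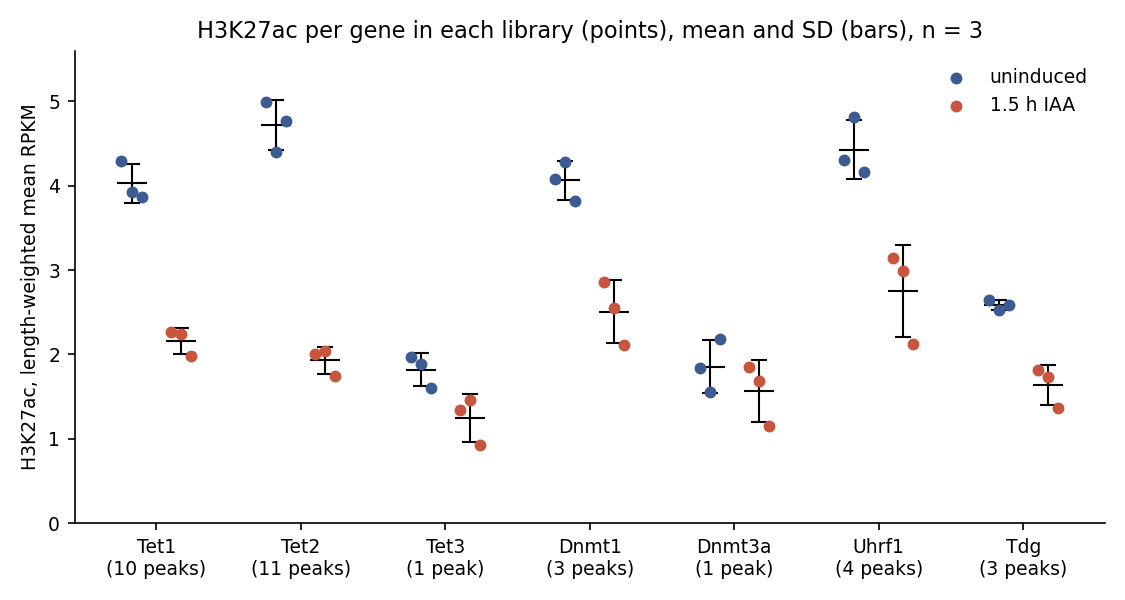
H3K27ac per gene (length-weighted mean RPKM) in each uninduced (blue) and IAA (red) library, with the mean and SD of 3 libraries. The Tet2 and Tet1 groups are far apart, the groups of Tet3, Dnmt1, Uhrf1 and Tdg are separated by less, and those of Dnmt3a overlap.

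Dnmt1, the maintenance methyltransferase, had 4.08, 4.29 and 3.82 RPKM in the uninduced libraries and 2.85, 2.55 and 2.11 RPKM after IAA. The means were 4.06 ± 0.234 and 2.50 ± 0.374 RPKM (SD, n = 3 each), with a log2 change of -0.71 (SE 0.15, adjusted p = 0.000325, limma). Its partner Uhrf1 had 4.31, 4.82 and 4.16 RPKM before and 3.14, 3.00 and 2.13 RPKM after, a log2 change of -0.70 (SE 0.16, adjusted p = 0.000416, limma). Both genes were thus lower in every IAA library. Measured against the median gene the changes were -0.15 for each, and neither passed the threshold (adjusted p = 0.403 for Dnmt1 and 0.564 for Uhrf1, limma).

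Tdg, the glycosylase, had 2.64, 2.53 and 2.59 RPKM in the uninduced libraries and 1.81, 1.73 and 1.36 RPKM after IAA. Its log2 change was -0.67 (SE 0.17, adjusted p = 0.00109, limma), or -0.12 relative to the median gene (adjusted p = 0.690, limma). Of its 3 peaks, 2 lie outside the gene at starts of other genes. With the gene body only, the log2 change was -0.50 (adjusted p = 0.0143, limma).

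Dnmt3a, a de novo methyltransferase, was the only one of the 7 genes without a call. Its 1 peak, in an intron, held 17 to 36 reads per library. It had 1.84, 1.55 and 2.18 RPKM before and 1.85, 1.69 and 1.15 RPKM after IAA, and the 2 groups overlapped. The log2 change was -0.26 (SE 0.20, adjusted p = 0.197, limma; exact two-sided permutation p = 0.5), and its sign turned to 0.29 relative to the median gene (SE 0.17, adjusted p = 0.559, limma). At this depth a fall like that of the median gene and no change could not be told apart. With peaks up to 50 kb on either side, Dnmt3a had 3 peaks and a log2 change of -0.60 (adjusted p = 0.000227, limma). The added peaks lie 24339 bp upstream and 45344 bp downstream of the gene, fell by 0.76 and 0.55 on the log2 scale, and are not known to belong to it.

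In uninduced cells the levels ordered as Tet2, Uhrf1, Dnmt1, Tet1, Tdg, Dnmt3a and Tet3. The ranges of Tet2 and Uhrf1, of Uhrf1 and Dnmt1, of Dnmt1 and Tet1, and of Dnmt3a and Tet3 overlapped between neighbours, whereas every Tet1 library was above every Tdg library and every Tdg library above every Dnmt3a library. After IAA the order of means was Uhrf1, Dnmt1, Tet1, Tet2, Tdg, Dnmt3a and Tet3, and the ranges of all neighbours overlapped. By its mean, Tet2 thus moved from the first place to the fourth. The first place did not hold in every library, since Uhrf1 (4.82 RPKM) was above Tet2 (4.40 RPKM) in uninduced replicate 2.

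A difference of log2 values between genes within a library is free of a factor that multiplies all peaks of that library alike. A background added to all peaks, or a change in enrichment over it, does not cancel. Its part in this or the later differences was not tested. The mean log2 value of Tet1, Tet2 and Tet3 minus that of Dnmt1 and Dnmt3a came to 0.35, 0.31 and 0.10 before IAA and to -0.33, -0.14 and -0.08 after it. This difference of means was above 0 in every uninduced library and below 0 in every IAA library. It does not hold gene by gene, since Tet3 was below Dnmt1 in all 6 libraries and Tet1 above Dnmt3a in all 6. On average the difference was 0.25 ± 0.13 before IAA and -0.18 ± 0.13 afterwards (SD, n = 3 each). The change of -0.43 on the log2 scale is given as a description of chosen genes with no test. Tet2 carried much of it. The change was -0.25 without Tet2 and -0.61 without Tet3, and it was -0.21 without Dnmt3a, whose peak has few reads. With windows of 50 kb, which bring in peaks for Dnmt3b and Dnmt3l, it was -0.28, or -0.07 without Tet2.

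Pair by pair, Tet2 minus Dnmt1 went from 0.22 ± 0.16 to -0.37 ± 0.13 (SD, n = 3 each) without overlap between the conditions. Tet1 minus Dnmt1 went from -0.01 ± 0.10 to -0.20 ± 0.13 (SD, n = 3 each), and the conditions overlapped. Tet3 minus Dnmt1 moved the other way, from -1.16 ± 0.10 to -1.03 ± 0.20 (SD, n = 3 each), also with overlap. Against Dnmt3a, Tet1 changed by -0.64 and Tet2 by -1.03 without overlap, and Dnmt3a minus Dnmt1 changed by 0.44 with overlap. Uhrf1 minus Dnmt1 was 0.12 ± 0.05 before and 0.13 ± 0.11 after IAA (SD, n = 3 each), so these partners in maintenance moved by nearly the same factor. This is not particular to the partners, since Tdg minus Dnmt1 was -0.65 ± 0.10 before and -0.62 ± 0.05 after IAA (SD, n = 3 each). Within the Tet family, Tet2 minus Tet1 came to 0.22, 0.16 and 0.30 before IAA and to -0.18, -0.13 and -0.19 after it. Tet2 was above Tet1 in every uninduced library and below it in every IAA library, a change of -0.39.

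**Figure D3:**
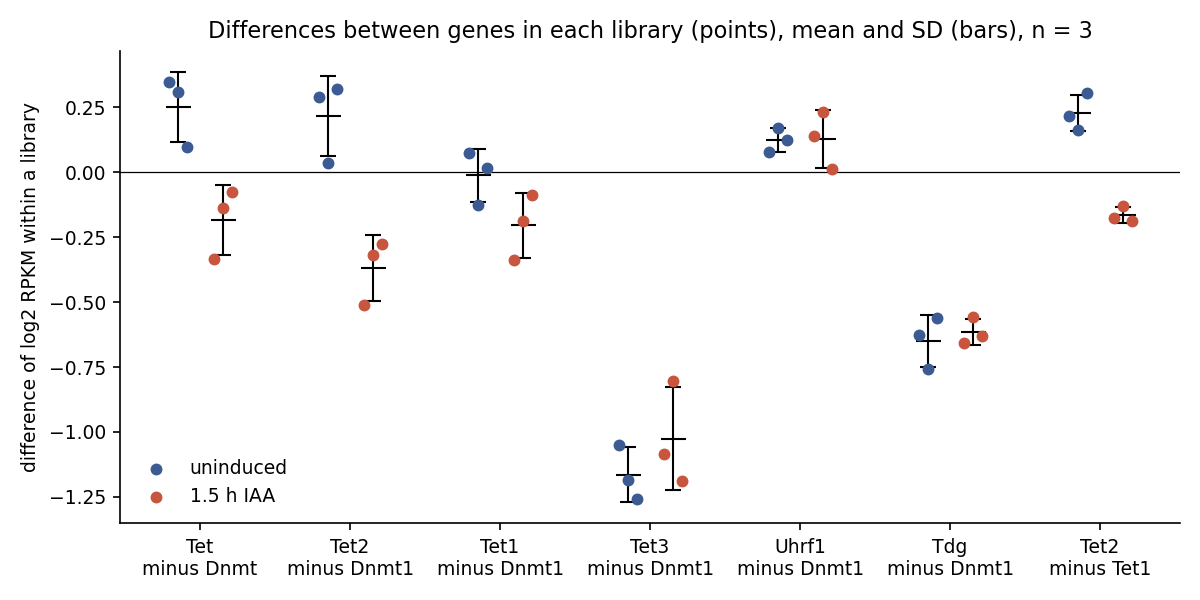
Difference of log2 RPKM between genes within each library (points) in uninduced (blue) and IAA (red) cells, with the mean and SD of 3 libraries. The points of the 2 conditions do not overlap for Tet minus Dnmt, Tet2 minus Dnmt1 and Tet2 minus Tet1, and overlap for the other pairs.

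The 11 Tet2 peaks spread over the gene from its start to just past its end. All 11 were lower, and 9 of them ranked between 64 and 580 among the 26457 tested peaks when ordered from the steepest fall. The largest change was in an intronic peak 18.8 kb downstream of the gene start. Its values were 5.41, 4.60 and 4.36 RPKM before and 1.56, 2.35 and 1.05 RPKM after IAA, a log2 change of -1.54 (SE 0.22, adjusted p = 6.73e-05, limma). A second intronic peak, 39.0 kb from the start (chr3:133505647-133506536), had 3.30, 3.77 and 3.69 RPKM before and 1.29, 1.37 and 0.974 RPKM after IAA, a log2 change of -1.50. Neither of these peaks has an OCT4 site within 1 kb. The first (chr3:133525775-133526846) lies next to an OCT4-marked peak (chr3:133525116-133525542), so lacking the mark does not place it far from OCT4 sites. The next fall, of 1.47 on the log2 scale, was at an OCT4-marked intronic peak 13.3 kb from the start (chr3:133531313-133532379). The fifth largest fall among the 33 peaks, of 1.21 on the log2 scale, was at another OCT4-marked intronic peak (chr3:133525116-133525542), with 5.46, 4.23 and 4.67 RPKM before and 2.34, 2.02 and 1.69 RPKM after IAA.

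The strongest Tet2 peak lies at the gene's start, in the UTR (chr3:133542852-133544327), within 1 kb of a start of the gene Gm42567 as well. It had 6.81, 6.07 and 5.99 RPKM before and 2.74, 3.03 and 2.35 RPKM after IAA, a log2 change of -1.19 (SE 0.16, adjusted p = 4.01e-05, limma), or -0.64 relative to the median peak (adjusted p = 0.00800, limma). The start and the intronic peaks of Tet2 were thus lowered by similar amounts. The exceptions were a peak downstream of the gene, with a log2 change of -0.64 and overlapping groups, and a coding-exon peak with a change of -1.12 and overlapping groups, where the IAA libraries ranged from 0.702 to 2.61 RPKM on 9 to 33 reads.

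Tet1 was less uniform. Its 5 peaks nearest the annotated gene start, 6.04 to 22.4 kb from it, had a joint level of 5.41, 4.83 and 4.72 RPKM in the uninduced libraries and 2.54, 2.30 and 2.19 RPKM after IAA, a log2 change of -1.09. Its 5 peaks 57.5 to 91.1 kb from the start had 2.74, 2.65 and 2.66 RPKM before and 1.87, 2.15 and 1.71 RPKM after, a log2 change of -0.50. Within libraries the near peaks exceeded the far peaks by 0.89 ± 0.08 on the log2 scale before and 0.30 ± 0.18 after IAA (SD, n = 3 each), without overlap. The near peaks are the peak that holds the RefSeq start of Tet1 and the peaks upstream of it, and the far peaks lie downstream of it. This split was made after the values were seen, the study displayed H3K27ac at a Tet1 and a Tet2 enhancer, and no test is given.

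The strongest Tet1 peak is an OCT4-marked intronic peak within 1 kb of a Tet1 start and of a start of Gm26479 (chr10:62893355-62894256). It had 6.37, 5.82 and 5.53 RPKM before and 2.24, 2.31 and 2.24 RPKM after IAA, a log2 change of -1.34 (SE 0.15, adjusted p = 1.74e-05, limma). It was the only Tet1 peak lower relative to the median peak, by -0.79 (adjusted p = 0.00369, limma). At the other end, the intronic peak at chr10:62843174-62843723 had 3.22, 3.80 and 3.72 RPKM before and 2.78, 3.28 and 2.89 RPKM after IAA. Its groups overlapped and its log2 change of -0.26 did not pass the threshold (adjusted p = 0.145, limma). A coding-exon peak at chr10:62833268-62833595 also failed to pass, with a change of -0.43 (adjusted p = 0.0780, limma). An intronic peak at chr10:62850877-62852163 passed, with -0.49 (adjusted p = 0.0268, limma).

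**Figure D4:**
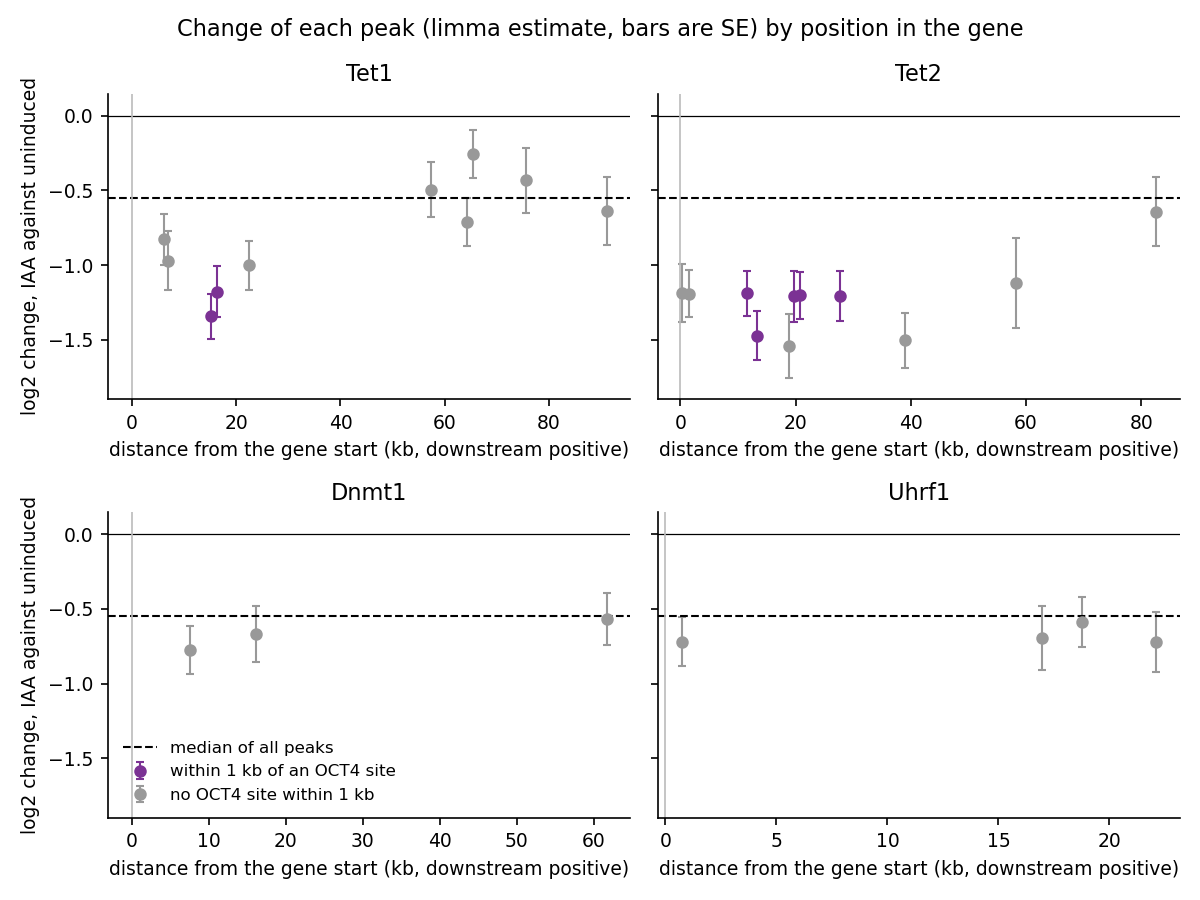
Log2 change of each peak (limma estimate, bars are SE) against its distance from the annotated gene start in kb, for Tet1, Tet2, Dnmt1 and Uhrf1; purple peaks lie within 1 kb of an OCT4 site, and the dashed line is the median of all peaks. At Tet1 the peaks near the start lie below the dashed line and those beyond 57.5 kb lie around it, whereas at Tet2 only the peak at 82.5 kb is near the line.

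The start peaks of the other genes changed by less. At Dnmt1 (chr9:20951905-20952939) H3K27ac was 5.21, 5.17 and 4.60 RPKM before and 3.29, 3.00 and 2.40 RPKM after IAA, a log2 change of -0.77 (adjusted p = 0.00137, limma). At Uhrf1 (chr17:56303372-56304723) it was 5.65, 6.69 and 5.62 RPKM before and 4.01, 4.02 and 2.86 RPKM after, a change of -0.72 (adjusted p = 0.00252, limma). Neither start passed the test relative to the median peak (-0.22 and -0.16, adjusted p = 0.337 and 0.550, limma). The start of Tet3 (chr6:83441067-83441503), shared with B230319C09Rik, changed by -0.53 as a single peak (adjusted p = 0.0380, limma). At Tdg the start peak (chr10:82629187-82629900) changed by -0.48 (adjusted p = 0.0271, limma), or 0.08 relative to the median peak (adjusted p = 0.868, limma). The highest peak in the Tdg window, which lies upstream at the start of 1190007I07Rik (chr10:82622450-82623214), changed by -0.73 (adjusted p = 0.00253, limma). Of the 33 peaks, 4 lie within 1 kb of a start of another gene only, so their signal may belong to that gene.

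Among the 33 peaks, 8 lie within 1 kb of an OCT4 site of the published data used by the authors: 5 at Tet2, 2 at Tet1 and 1 at Tdg. None of the Dnmt or Uhrf1 peaks carries the mark. Across all tested peaks the median log2 change was -0.71 with the mark and -0.52 without it. Among the 33, it was -1.21 for the 8 marked peaks and -0.71 for the 25 unmarked peaks, but within Tet2 it was -1.21 for the 5 marked and -1.19 for the 6 unmarked peaks. Of these Tet2 peaks, 5 of 5 marked and 3 of 6 unmarked were lower relative to the median peak. Over all tested peaks these shares were 7.55% with the mark and 0.771% without it. At Tet1 the median was -1.26 for the 2 marked and -0.67 for the 8 unmarked peaks. The marked Tdg peak, downstream of the gene at a start of Glt8d2, changed by -0.69. With all marked peaks left out, the Tet minus Dnmt difference changed by -0.40, though the unmarked Tet2 peak next to a marked one stayed in. A role of OCT4 sites beyond 1 kb was not tested.

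The octamer ATGCAAAT (ATTTGCAT on the other strand), the sequence bound by OCT4 and other POU factors, was sought in a 1 kb window centred on each peak. It occurs in the windows of 6 of the 33 peaks (18.2%), against 4.91% of all tested peaks and 10.3% of those with the OCT4 mark. The window reaches past shorter peaks. The octamers at the Tdg start peak and at the Tet1 peak chr10:62843174-62843723 lie outside the peak. By gene, 2 of these peaks are at Tet1, 2 at Tet2 and 2 at Tdg. The SOX-octamer TTGTNATGC, which shares its last 4 letters with the start of the octamer, occurs on either strand in 1 of the 33 windows (3.03%), outside the peak. It occurs in the windows of 2.31% of all tested peaks. The contexts below show 4 octamers with 30 bases on each side, with the octamer in capitals and each read on the strand that holds ATGCAAAT. The Tet2 and Tdg peaks shown carry the OCT4 mark, the first Tet1 octamer lies inside an unmarked peak, and the second Tet1 octamer lies beside the Tet1 peak with the smallest change. The octamers at the unmarked Tet2 coding-exon peak and the unmarked Tdg start peak are not shown.
Tet2 intron, chr3:133524127-133524194, plus strand: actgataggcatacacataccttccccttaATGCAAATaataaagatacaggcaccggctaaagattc
Tdg downstream, chr10:82652696-82652763, minus strand: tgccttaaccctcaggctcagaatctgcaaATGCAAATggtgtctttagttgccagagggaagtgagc
Tet1 intron, chr10:62902979-62903046, minus strand: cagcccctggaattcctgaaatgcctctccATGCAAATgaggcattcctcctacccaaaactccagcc
Tet1 intron, chr10:62842967-62843034, plus strand: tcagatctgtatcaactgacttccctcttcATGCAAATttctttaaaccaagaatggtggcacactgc

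The Tet2 peak around its octamer had 5.28, 4.38 and 5.34 RPKM before and 1.999, 2.12 and 2.21 RPKM after IAA, a log2 change of -1.20. The Tet1 peak around the first Tet1 octamer changed by -0.83, and the peak beside the second by -0.26. Peaks with an octamer in their window thus included both steep and small changes. The median GC content was 48.4% over the Tet peaks, 56.5% over the peaks of the other genes and 52.9% over all tested peaks.

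Dnmt3b and Dnmt3l had no deposited peak in their windows. Peaks were called in uninduced cells, so a region gaining H3K27ac after IAA would not be listed. The peak nearest to Dnmt3b lies 16184 bp upstream at the start of Commd7 and had 2.32, 2.34 and 1.82 RPKM before and 1.92, 1.56 and 1.89 RPKM after IAA (log2 change -0.25, adjusted p = 0.215, limma). The peak nearest to Dnmt3l lies 31863 bp upstream at the start of Pfkl and changed by -0.45 (adjusted p = 0.0320, limma). Dnmt3b, the other de novo methyltransferase, has a promoter rich in CpGs. The 250 bases before its RefSeq start (GRCm38.p6) hold 21, against 10 at Uhrf1, whose start carries a strong peak, and a median of 6 over the 32851 promoters of the RefSeq table. Both are printed to set a start without a peak beside one with a peak, with CpGs in capitals.
Dnmt3b upstream, chr2:153649199-153649448, plus strand: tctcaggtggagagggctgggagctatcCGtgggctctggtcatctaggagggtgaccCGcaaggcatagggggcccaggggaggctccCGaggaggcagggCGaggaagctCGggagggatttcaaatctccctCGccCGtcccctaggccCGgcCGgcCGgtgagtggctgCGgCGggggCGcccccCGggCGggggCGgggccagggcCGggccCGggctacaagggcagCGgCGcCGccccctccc
Uhrf1 upstream, chr17:56303087-56303336, plus strand: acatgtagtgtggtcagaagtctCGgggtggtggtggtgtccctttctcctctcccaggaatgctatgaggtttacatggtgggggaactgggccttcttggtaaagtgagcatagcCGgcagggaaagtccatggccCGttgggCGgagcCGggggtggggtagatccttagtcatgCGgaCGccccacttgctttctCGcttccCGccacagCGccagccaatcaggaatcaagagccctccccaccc

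Of 55 other genes of the pathway, 49 had a peak and were tested per gene, 47 were lower, and all 49 estimates were below 0, beside 86.7% of all tested genes lower. All 12 tested maintenance partners and regulators, 13 repair and deamination genes, 6 partners of TET proteins and 8 genes of methyl donor supply were lower, as were 8 of 10 readers of methylated or unmethylated CpG. The readers not called were Zbtb33, the methyl-CpG-binding protein Kaiso (log2 change -0.28, adjusted p = 0.134, limma), and Cxxc1, which binds unmethylated CpG (-0.35, adjusted p = 0.0560, limma). The median log2 change over the 49 genes was -0.62, against -0.54 over all tested genes. Among those without a peak were Dppa3, Cdca7l, Neil3, Gadd45g and Cxxc4.

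Relative to the median gene, 3 of the 49 were lower and 0 were higher (limma, with 11 lower and 1 higher at an unadjusted p under 0.05), where 1.01% of all tested genes were lower. Sall4, a zinc-finger factor of pluripotent cells, had 7.88, 7.51 and 6.78 RPKM before and 3.22, 2.54 and 2.75 RPKM after IAA, a relative log2 change of -0.83 (adjusted p = 0.00326, limma). Zfp57, which keeps methylation at imprinted loci, changed by -0.40 relative to the median gene (adjusted p = 0.0190, limma), and Mtr, methionine synthase, by -0.49 (adjusted p = 0.0202, limma). The Sall4 call remained with any library left out, with a largest adjusted p of 0.0341 from limma. The Zfp57 and Mtr calls were lost without uninduced replicate 1 (adjusted p = 0.134 and 0.132), 2 (0.0944 and 0.0941) or 3 (0.131 and 0.155) and without IAA replicate 1 (0.0893 and 0.0780). Without uninduced replicate 1 or 3, the genes lower relative to the median over all tested genes numbered 15 and 14, against 131 with all libraries. Nanog, whose protein is known to bind TET1 and TET2, changed by -0.62, or -0.07 relative to the median gene.

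The genes whose pattern over the 6 libraries was most like that of a member were found by the root mean square difference of log2 values, each gene centred on its own mean, among genes with at least 3 peaks and no shared peak. For Tet2 they were Katnal2 (0.02), Ssr2 (0.05) and Fam81a (0.06), whose own log2 changes were -1.25, -1.32 and -1.25. For Tet1 they were Lrrc34 (0.02), B4galt6 (0.03) and Rnf216 (0.04). For Dnmt1 they were Fam221b, Ndufv2 and Rere (0.03 each), and for Tdg they were Dym, Crebbp (0.01 each) and Ostm1 (0.02). For Uhrf1 they were Hdgfl2 and Ubxn6, which share their peaks, and Bmp7 (0.03, 0.03 and 0.04). The nearest genes for Tet3 were Pigt, St6galnac4 and Tango6 (0.05, 0.06 and 0.06), and for Dnmt3a they were Mrps17, Osm and Nipsnap2 (0.10, 0.10 and 0.11), a looser likeness.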

How the data were processed

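H3K27ac ChIP-seq was analysed in 3 uninduced and 3 IAA libraries, grouped by the labels. The authors aligned reads to GRCm38/mm10 with Bowtie2 2.3.4.3, removed duplicates, called peaks with MACS2 on the pooled uninduced IPs, and used DiffBind to make the deposited RPKM values, which come with a mark for OCT4 sites within 1 kb. For MACS2 and DiffBind, versions are not given in the sources used here. The deposited pooled columns are the mean RPKM of the 3 libraries and served only for the threshold. The authors' methods name the antibody as ab4729 and the labels as ab4792.

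The length of a peak is its deposited end minus its start, under which 100% of the values are whole multiples of 1 read (tolerance 0.01 reads), and library sizes follow from that step. The median tested peak held 36 to 73 reads, a counting error of 11.7% to 16.7%, and a member peak held 9 to 405 reads. Peaks of at least 0.5 RPKM in either pooled column were tested with limma 3.58.1 (R 4.3.3, eBayes with trend and robust) on log2(RPKM + 0.1), which understates changes of low peaks, and genes on log2 of the length-weighted mean RPKM with nothing added. Benjamini-Hochberg adjustment covered all peaks or all genes. Count models were not applied, since RPKM values are normalized, and limma was tested on simulated data. Some items are not reported here. All 9 members are named, with their start peak, their highest peak, and the 5 largest and 5 smallest changes among the 33 peaks. The other peaks named were chosen after their values were seen. The members, gene lists and this rule were chosen with earlier results of these data known. Sequences and annotation are from GRCm38 (GENCODE vM21, and RefSeq for the promoters), and all 9 genes matched the RefSeq promoter table. Alternatives were the pseudocount, threshold, scaling, window, choice of peaks, replicate block, settings of limma, and each library left out.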

Additional observations from a re-analysis of the deposited data

How the results depend on the processing

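The falls on the deposited RPKM scale of Tet1, Tet2, Dnmt1, Uhrf1 and Tdg kept their direction and their call when any library was left out, and lost the call, except for Tet2, when libraries were centred. After centring on the median peak, the peaks lower numbered 520 and the members lower 9, and with quantile normalization 447 and 9. Centred on the median gene, 131 genes were lower, 1 of them a member, and the Dnmt3a change reversed to 0.29. The genes lower numbered 3999 with distal peaks and 7323 without peaks at a start of another gene, where fewer genes had a value.

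Leaving out each library, 10378 to 19611 peaks, 24 to 30 member peaks, 8464 to 11906 genes and 5 to 6 member genes were lower. Relative to the median these ranges were 99 to 692 peaks, 1 to 12 member peaks, 14 to 141 genes and 0 to 1 member genes, alternatives chosen after seeing the data. Over them Tet2 relative to the median gene ranged from -0.80 to -0.67 (adjusted p from 0.00810 to 0.0611) and Tet1 from -0.38 to -0.28 (adjusted p from 0.0563 to 0.395). Tet3 ranged from -0.14 to 0.09, and its sign reversed without uninduced replicate 1 (0.02), IAA replicate 1 (0.0089) or IAA replicate 3 (0.088).

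The Tet minus Dnmt change ranged from -0.51 to -0.36 with a library left out. It was -0.28 with 50 kb windows, -0.58 as a median over genes, -0.25 without Tet2, -0.61 without Tet3 and, chosen after seeing the data, -0.21 without Dnmt3a and -0.071 with 50 kb windows and without Tet2. It was not run without Dnmt3l, which has no peak. The cause of these differences was not tested.

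The values showed no sign that libraries were paired by replicate number, which 3 libraries per condition cannot exclude. Deviations of same-numbered libraries correlated at -0.09 to -0.01 over peaks and -0.13 to -0.03 over genes, and 0 of the 3 uninduced libraries correlated best with their own number. With a replicate block, 18898 peaks and 11724 genes were lower, and relative to the median 311 peaks and 45 genes. Member counts with the block were 31 peaks and 6 genes, and 9 and 1 relative to the median, while of the 3 other pathway genes lower relative to the median only Sall4 kept its call (adjusted p = 0.00676, against 0.0689 for Zfp57 and 0.0759 for Mtr, limma).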
